A study of Mus musculus with 3 samples.

Results

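Cathepsins are the proteases of the lysosome, and 10 of their genes were followed here by symbol among 16129 listed genes: Ctsw, Ctsd, Ctsb, Ctss, Ctsa, Ctsz, Ctsh, Ctsc, Ctsl and Ctsk. They were measured by RNA sequencing in type 2 innate lymphoid cells (ILC2s), lymphocytes that make type 2 cytokines, sorted from lungs of wild type mice treated with IL-33 in vivo. The 3 libraries, replicates 1, 2 and 3, are 1 group with the same labels. The sources used here do not give the strain, the age or the sorting gates. They also do not tie the libraries to different mice or sorts, and the SDs may therefore reflect technical spread. No untreated library was analysed here.

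The libraries held 19976129 expected counts in replicate 3, against 19948056 and 19883728 in replicates 1 and 2. All 12 ILC2 markers examined, among them Il1rl1 and Il13, averaged 100 TPM or more (the TPM unit gives a level per transcript length). Of 20 macrophage markers 19 were listed and 10 were detected, against 67.3% of all listed genes. Detected here means at least 1 TPM in each library. Replicate 3 stood apart in these markers. Their summed level was 557 TPM in replicate 3, against 406 and 399 TPM in replicates 1 and 2, and most of that sum was Chil3. In bulk samples, fewer cells of a type and less RNA per cell cannot be told apart.

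Most cathepsins are cysteine proteases of the papain family, which are made as inactive proforms, carried to the lysosome by mannose 6-phosphate receptors and activated there by removal of the propeptide at acid pH. Ctsd encodes an aspartic protease and Ctsa a serine carboxypeptidase. In antigen-presenting cells cathepsins S and L cut the invariant chain of class II molecules, in killer cells and mast cells cathepsin C activates granule serine proteases, and cathepsin K is best known as the collagenase of osteoclasts. Macrophages are rich in many of these enzymes, whereas cathepsin W is a lymphocyte member known from natural killer cells and cytotoxic T cells.

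All 10 cathepsins were detected, against 67.3% of all listed genes. Of the 10, 6 had a mean of at least 100 TPM, a level reached by 10.3% of listed genes. Their median of the mean levels was 166 TPM, beside 11.2 TPM over all listed genes and 28.2 TPM over detected genes. The levels fell into 3 ranges: 6 genes from 154 to 810.0 TPM, 3 genes from 21.6 to 41.8 TPM, and Ctsk at 4.01 TPM. This grouping holds per transcript length only, since on the CPM scale of depth-scaled counts Ctsc averaged 96.1, beside 103 for Ctsz.

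Ctsw led the family. It was at 820.4 TPM in replicate 3, against 798 and 812 TPM in replicates 1 and 2, a mean of 810.0 ± 11.2 TPM (SD, n = 3), with a rank between 159 and 161 among all listed genes in each library. The libraries lay close together for this gene. Ctsw (Entrez gene 13041) lies on chromosome 19 from 5465043 to 5468628 in GRCm38.p6, on the minus strand. Its interval overlaps the plus-strand gene Fibp, although no 50-base word of its transcripts occurs in another listed gene.

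Ctsd, the main aspartic protease of lysosomes, came next. It was at 513 TPM in replicate 3, against 503 and 487 TPM in replicates 1 and 2, with ranks of 250 to 257. Ctsb, a cysteine protease that also trims peptides from protein ends, was at 340.4 TPM in replicate 3, against 331 and 333 TPM in replicates 1 and 2. Together Ctsw, Ctsd and Ctsb made up 72.3 ± 0.438% of the summed TPM of the 10 genes (SD, n = 3). Ctsw alone made up 35.6 ± 0.509%, Ctsd 21.99 ± 0.288% and Ctsb 14.7 ± 0.142%. Of the 50-base words of Ctsb transcripts, 12.1% also occur in Fdft1, a gene on the other strand that overlaps it. The sources used here give no strand setting for the counting, so reads from the overlap cannot be told apart.

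The middle of the order was held by Ctss, Ctsa and Ctsz. Ctss, the invariant chain protease, was at 194 TPM in replicate 3, against 206 and 194 TPM in replicates 1 and 2. Ctsa, which also holds the sialidase and beta-galactosidase of the lysosome in a protective complex, was at 177 TPM in replicate 3, against 183 and 174 TPM in replicates 1 and 2. Ctsz, a carboxypeptidase, was at 155 TPM in replicate 3 and 153 TPM in each of replicates 1 and 2. These 3 genes were steady across libraries, and the spread of Ctsz, at 0.764% of its mean, was the smallest of the 10. Ctsa shares 11.6% of its 50-base words with other listed genes, among them its overlapping neighbours Neurl2 and Pltp.

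The lower members were Ctsh, Ctsc, Ctsl and Ctsk. Ctsh, an aminopeptidase, was at 43.9 TPM in replicate 3, against 42.1 and 39.5 TPM in replicates 1 and 2. Ctsc, the dipeptidyl peptidase that activates granule proteases, was at 36.6 TPM in replicate 3, against 35.5 and 32.2 TPM in replicates 1 and 2. For both genes replicate 3 was highest and replicate 2 lowest.

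Ctsl, an endopeptidase of many tissues, was at 25.1 TPM in replicate 3, against 19.3 and 20.4 TPM in replicates 1 and 2. Ctsk was at 5.41 TPM in replicate 3, against 3.28 and 3.34 TPM in replicates 1 and 2, which rests on 84, 51 and 52 expected counts in that order of libraries. In both genes replicates 1 and 2 lay together and replicate 3 stood above them. The SD was 30.2% of the mean for Ctsk and 14.2% for Ctsl, and between 0.764% and 6.52% for the other 8 genes.

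**Figure D1:**
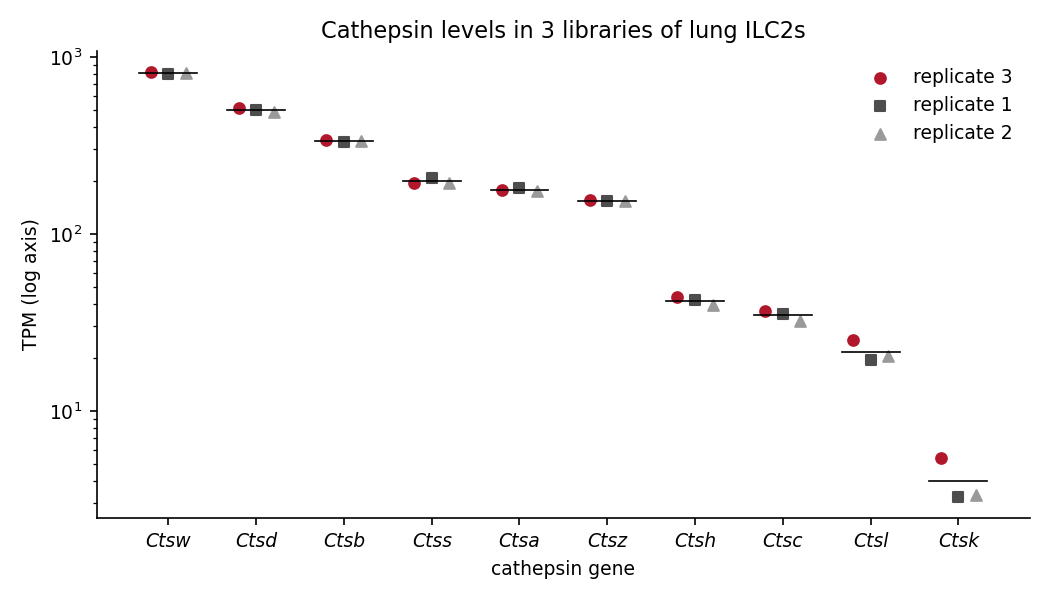
TPM (log axis) of the 10 cathepsin genes in each library, in order of mean level; circles are replicate 3, squares replicate 1, triangles replicate 2, and lines the mean of the 3. Ctsw is highest at 810.0 TPM and Ctsk lowest at 4.01 TPM, and replicate 3 is visibly apart for Ctsl and Ctsk.

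For each of the 9 neighbouring pairs in this order, the ranges over the 3 libraries did not overlap. The closest pair was Ctss over Ctsa, with a ratio of 1.11 ± 0.0179 (SD, n = 3), followed by Ctsa over Ctsz at 1.16 ± 0.0308 and Ctsh over Ctsc at 1.204 ± 0.0199. The widest step was Ctsl over Ctsk at 5.55 ± 0.793, and the next was Ctsz over Ctsh at 3.69 ± 0.175. On the CPM scale, Ctss lay below Ctsa and Ctsh below Ctsc, so these orders hold per transcript length only.

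Ctss and Ctsk are neighbours on chromosome 3 and on the same strand, with Ctsk from 95499210 to 95509387, Ctss from 95526786 to 95556405 and 17398 bases between them. Their levels were far apart, Ctss exceeding Ctsk by 52.2 ± 14.4-fold in TPM (SD, n = 3). The ratio was 35.9 in replicate 3, against 62.8 and 58.0 in replicates 1 and 2, so it was lowest in the library where Ctsk was highest.

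The transcription factors TFEB and TFE3, which switch on lysosomal genes, bind a motif built on CACGTG that often reads TCACGTG. The 250 bases before each start were searched on both strands in 8 RefSeq promoter windows of 7 members (GRCm38.p6). Ctsw, Ctsb and Ctsh had no entry. CACGTG occurred in 3 of the 8 windows, those of Ctsd, Ctsl and Ctsa, and in 6.02% of 32851 windows of the same length. TCACGTG, which contains CACGTG and is counted again where it reads on the other strand as CACGTGA, occurred in 2 of the 8 (Ctsd and Ctsa) and in 3.13% of all windows. The core of the interferon response element, GAAA followed by any pair of bases and GAAA again, was found in 1 of the 8, that of Ctss, and in 2.98% of all windows. The stretches that hold these letters are shown 5′ to 3′, with the matches in capitals, because they are what the members' promoters had in common or apart. They are descriptions of letters and not of binding.
Ctsd, chr7:142387909-142388077, minus strand: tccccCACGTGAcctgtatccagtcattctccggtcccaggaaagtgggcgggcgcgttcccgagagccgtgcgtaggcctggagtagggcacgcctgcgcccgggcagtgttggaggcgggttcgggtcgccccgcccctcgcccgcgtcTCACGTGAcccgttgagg
Ctsa, chr2:164833750-164833772, plus strand: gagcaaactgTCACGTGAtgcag
Ctsl, chr13:64370741-64370766, minus strand: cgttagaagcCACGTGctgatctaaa
Ctss, chr3:95526755-95526784, plus strand: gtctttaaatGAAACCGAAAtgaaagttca
The first match lay 245 bases before the start in Ctsd and 21 in Ctss, upstream of the annotated gene. In Ctsa and Ctsl it lay 13 and 236 bases before a start that is inside the annotated gene interval, so these stretches are within the gene and not upstream of it. The 3 members with CACGTG spanned the order of levels, from Ctsd at 501 TPM through Ctsa at 178 TPM to Ctsl at 21.6 TPM.

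Replicate 3 was then compared with replicates 1 and 2 for the 7 members typical of macrophages (Ctsd, Ctsb, Ctss, Ctsz, Ctsh, Ctsl and Ctsk). Ctsk and Ctsl were set apart in replicate 3, while the other 5 had ratios near 1. The ratio of TPM in replicate 3 to the mean of replicates 1 and 2 was 1.63 for Ctsk, with a 95% counting interval of 1.21 to 2.20, and 1.26 for Ctsl, with an interval of 1.11 to 1.44. It was 1.08 for Ctsh (0.977 to 1.18), 1.04 for Ctsd (1.01 to 1.06), 1.03 for Ctsb (0.997 to 1.06), 1.01 for Ctsz (0.96 to 1.07) and 0.971 for Ctss (0.924 to 1.02). With 1 library on one side and no label that separates it, no test was made. The intervals cover counting error only and are centred on the ratio in TPM. On the CPM scale the ratio of Ctsd was 1.02, so an interval above 1 in TPM need not be above 1 in counts.

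The other members lay near 1, with 1.08 for Ctsc (1.02 to 1.14), 1.02 for Ctsw (0.995 to 1.04) and 0.996 for Ctsa (0.957 to 1.04). On the CPM scale the ratio of Ctsc was 1.03. Thus 2 of the 10 were at least 1.2-fold higher in replicate 3, against 3.79% of the 11042 genes with a mean of at least 1 TPM. Low genes pass this fold more often. The share was 13.3% of genes with a mean from 1 to under 10 TPM, the range of Ctsk, and 0.593% of genes at 10 TPM or more, the range of Ctsl. Replicate 3 was the highest library for 8 of the 10 members, against 40.0% of genes. The median ratio was 1.03 over the 10 members, 1.04 over the 7 macrophage-type members and 1.01 over all genes with a mean of at least 1 TPM.

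Macrophage markers moved with replicate 3 as a list. Of the 10 that averaged 1 TPM or more in replicates 1 and 2, 9 were at least 1.2-fold higher in replicate 3. The share of all genes past the same filter was 3.47%, and the median ratio of the 10 markers was 1.39. By the mean of all 3 libraries, 3 of these markers averaged at least 10 TPM, a range where 0.593% of genes passed. The others averaged from 1 to under 10 TPM, where 13.3% passed. Chil3, a chitinase-like protein of lung macrophages, was at 461 TPM in replicate 3, against 338 and 327 TPM in replicates 1 and 2. Of its 50-base words 16.9% also occur in its relative Chil4, so its level is uncertain. Without Chil3, the summed level of the list was still 1.36 times as high in replicate 3. Cd68, a lysosomal membrane glycoprotein, was at 5.98 TPM in replicate 3, against 4.15 and 4.30 TPM in replicates 1 and 2. Lyz2, the lysozyme of myeloid cells, was at 46.8 TPM in replicate 3, against 33.1 and 37.4 TPM in replicates 1 and 2. These 3 markers were each highest in replicate 3, with no overlap with the other libraries. Fabp4, named after its value was seen, was the exception at a ratio of 0.756, on 7 to 11 expected counts per library. Of the 19 listed markers, 7 were below 1 TPM in all libraries, among them Adgre1, Cd163 and Fcgr1, and 0 were at 0 throughout. The detected neutrophil markers were also higher in replicate 3. Both that averaged 1 TPM or more in replicates 1 and 2 passed 1.2-fold, on few counts. The ratio was 1.80 (1.22 to 2.65) for Csf3r and 2.00 (0.96 to 4.17) for Retnlg. Of genes with a mean from 1 to under 10 TPM, the range of both, 13.3% passed this fold. Among the 3 listed neutrophil markers not detected, S100a8 was highest in replicate 3, but S100a9 and Mpo were highest in replicate 1. The summed level of the 5 listed neutrophil markers was 6.76 TPM in replicate 3, against 4.06 and 3.77 TPM in replicates 1 and 2. None of the 12 ILC2 markers passed 1.2-fold, with ratios between 0.965 and 1.04. All 12 averaged at least 100 TPM, and of all genes at 10 TPM or more only 0.593% passed. The part of macrophage and neutrophil markers in the ratios of Ctsk and Ctsl was not tested.

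**Figure D2:**
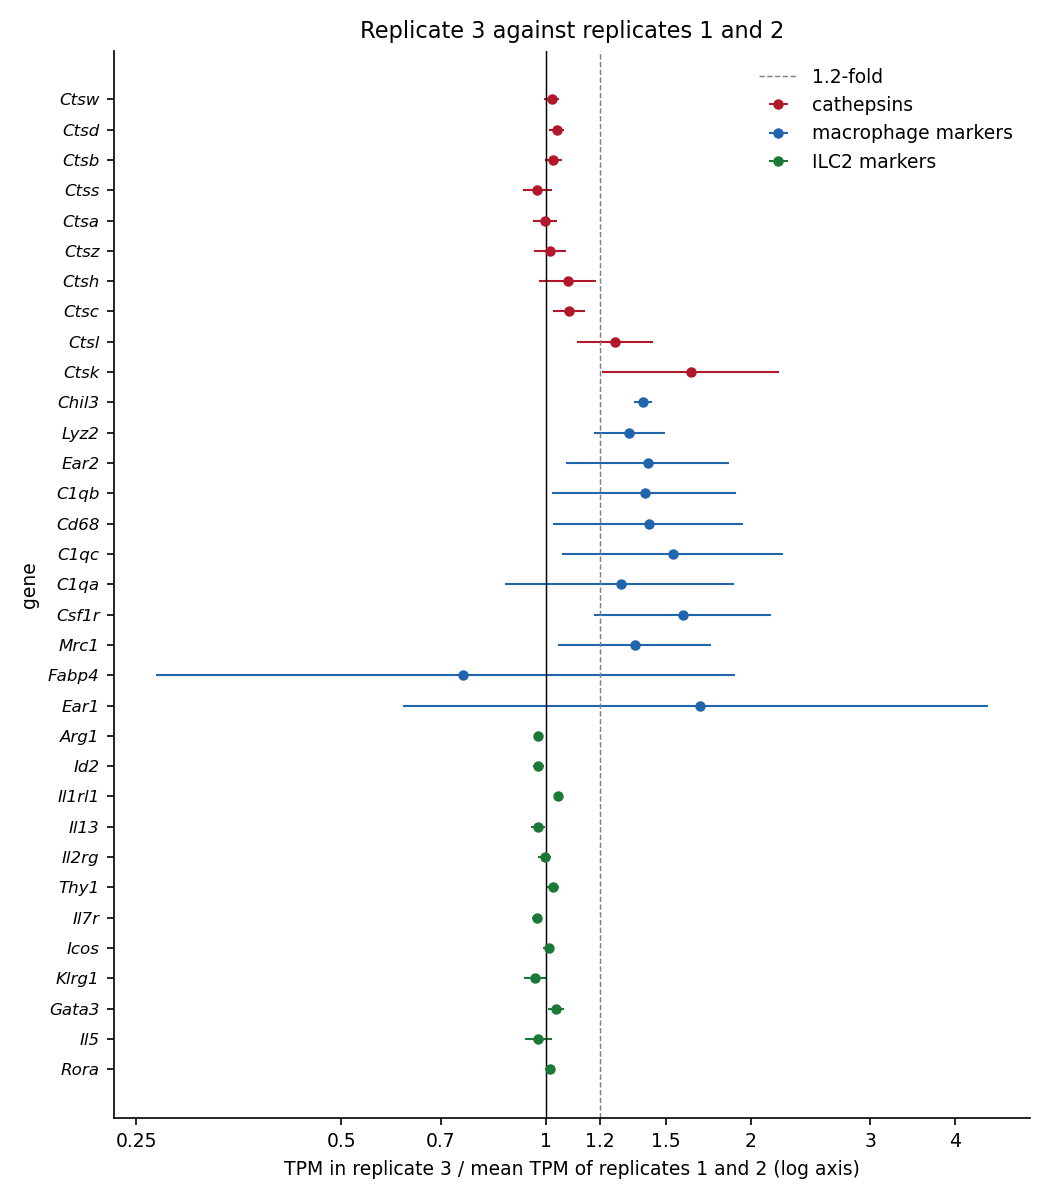
Ratio of TPM in replicate 3 to the mean TPM of replicates 1 and 2 (log axis) for the cathepsins, the macrophage markers with a mean of at least 1 TPM and the ILC2 markers; bars are 95% counting intervals and the dashed line is 1.2-fold. The ratio is 1.63 for Ctsk, 1.26 for Ctsl and between 0.971 and 1.08 for the other cathepsins. Macrophage markers run from 0.756 to 1.68 and ILC2 markers from 0.965 to 1.04. Ctsl lies below every macrophage marker shown except Fabp4, and Ctsc and Ctsh lie above every ILC2 marker.

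**Figure D3:**
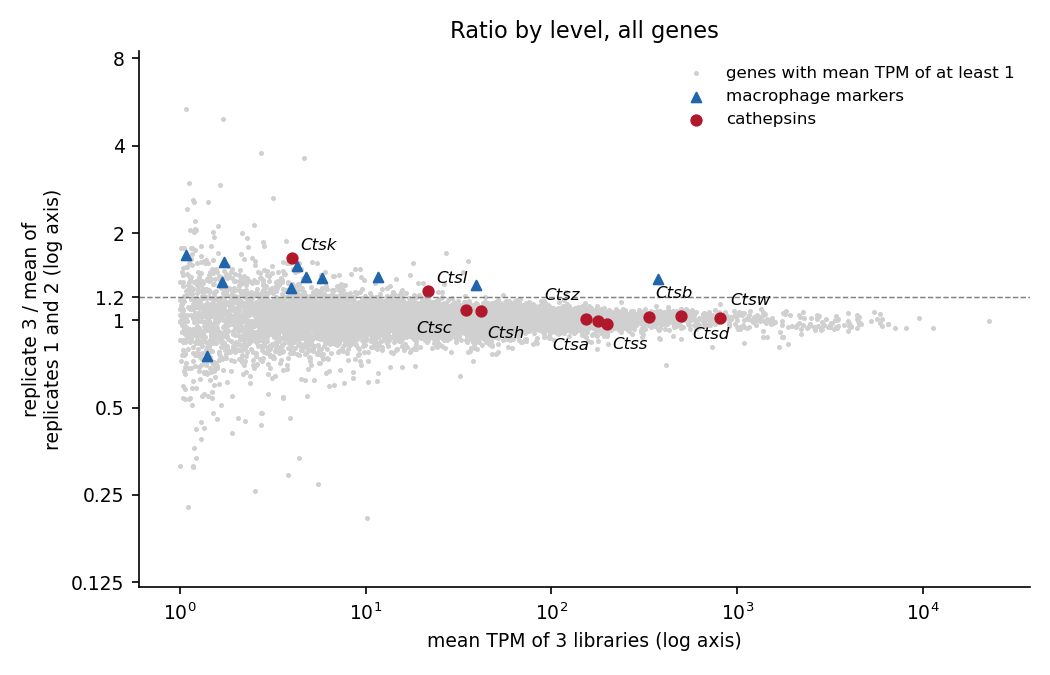
The same ratio (log axis) against mean TPM (log axis) for all genes with a mean of at least 1 TPM and a ratio above 0 (grey), the macrophage markers (triangles) and the cathepsins (circles); the dashed line is 1.2-fold. The spread of the grey points narrows with level, from 13.3% past 1.2-fold under 10 TPM to 0.593% above it, and 2 cathepsins lie over the line.

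The size of the change in TPM differed from the ratio. Replicate 3 exceeded the mean of replicates 1 and 2 by 2.10 TPM for Ctsk and 5.23 TPM for Ctsl, but by 18.2 TPM for Ctsd, 15.5 TPM for Ctsw and 8.53 TPM for Ctsb, whose ratios were near 1. The median ratio over all genes with a mean of at least 1 TPM was 1.013 in TPM and 1.001 on the CPM scale. The TPM differences were not corrected for this shift, which weighs most on genes of high level. The genes most like Ctsk over the 3 libraries, by Euclidean distance in log2(TPM + 1), were Cd9 (distance 0.0553), Itgax (0.131) and C1qc (0.141). C1qc, a complement subunit and one of the macrophage markers, was at 5.56 TPM in replicate 3, against 3.56 and 3.66 TPM in replicates 1 and 2. The genes most like Ctsw were Capg (0.0302), Nop53 (0.0387) and Tagln2 (0.0647). With 3 libraries of 1 group this distance reflects mainly the level.

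Beyond the 10 members, 4 of 13 further cathepsin genes were listed and 3 of these 4 were detected, against 67.3% of all listed genes. Ctso, a cysteine protease, averaged 17.4 ± 1.40 TPM, Ctse, an aspartic protease of endosomes, 14.5 ± 1.01 TPM, and Ctsf, which also cuts the invariant chain in macrophages, 2.37 ± 0.442 TPM (SD, n = 3). Ctsf was at 2.88 TPM in replicate 3, against 2.12 and 2.11 TPM in replicates 1 and 2, a ratio of 1.36 with a counting interval of 0.926 to 1.99. Cts8, of a placental group of mouse cathepsins, stayed below 1 TPM. The other 9 genes were not analysed here. Among other lysosomal proteases 6 of 6 were detected, against 67.3% of all listed genes. Lgmn, the asparaginyl endopeptidase that processes several cathepsins, led at 165 ± 5.24 TPM, followed by Tpp1 (83.2 ± 1.54 TPM), Prcp (57.9 ± 0.147 TPM), Scpep1 (30.4 ± 1.25 TPM), Dpp7 (27.5 ± 1.64 TPM) and Napsa, an aspartic protease of alveolar epithelium (14.8 ± 1.33 TPM).

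Transcripts of the genes listed here as cathepsin inhibitors reached the same range as those of the proteases. Whether the serpins on this list act on the cathepsins followed here was not tested, so their levels do not stand for inhibition of these members. Of 11 listed inhibitor genes 8 were detected, close to the share of 67.3% over all listed genes. The median over the 11 was 132 TPM. Serpinb6a, an intracellular serpin, averaged 446 ± 20.3 TPM, Cst3, the secreted cystatin C, 388 ± 9.33 TPM, and Cstb, a cytosolic cystatin, 132 ± 3.88 TPM (SD, n = 3). Serpina3g and Serpinb1a stood at 71.4 ± 3.80 and 70.5 ± 4.93 TPM. Of the 50-base words of Serpinb6a and Serpina3g, 16.4% and 12.04% occur in other listed genes, which makes these levels less certain. These are serpin relatives and, for Serpinb6a, also Nqo2 and Ripk1. Cst6, Csta1 and Csta2 were below 1 TPM in all libraries.

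Some inhibitors have a known partner among the members. Ctla2a, whose mouse product resembles a cathepsin propeptide and blocks cathepsin L, was at 347 TPM in replicate 3, against 415 and 388 TPM in replicates 1 and 2, which made it lowest where Ctsl was highest. Its TPM exceeded that of Ctsl 13.8-fold in replicate 3, against 21.5-fold and 19.0-fold in replicates 1 and 2. Its relative Ctla2b was at 176 TPM in replicate 3, against 205 and 179 TPM in replicates 1 and 2. Of their 50-base words, 14.1% of Ctla2a and 14.8% of Ctla2b occur in another listed gene, mainly each other, so reads can be split between them with uncertainty. Cst7, the cystatin F of immune cells that restrains cathepsin C, averaged 186 ± 7.26 TPM and exceeded Ctsc 5.35 ± 0.278-fold in TPM (SD, n = 3). On the CPM scale the order turned, with 83.3 for Cst7 and 96.1 for Ctsc.

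The machinery that delivers and supports cathepsins was detected nearly in full. Of 12 sorting and cofactor genes 11 were detected, against 67.3% of all listed genes, and the exception was Sort1, which stayed below 1 TPM. Psap, the saposin precursor cut by cathepsin D, led at 498 ± 27.3 TPM, close to Ctsd itself at 501 ± 13.2 TPM, and their ranges overlapped. On the CPM scale Psap was higher, at 621 beside 448 for Ctsd. Psap was at 529.7 TPM in replicate 3, against 480.1 and 485 TPM in replicates 1 and 2. Sorl1 averaged 293 ± 11.0 TPM. M6pr, the smaller mannose 6-phosphate receptor, averaged 261 ± 4.96 TPM, and Igf2r, the larger one and named after its value was seen, 26.2 ± 0.185 TPM (SD, n = 3).

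Acidification and membrane genes were detected in 13 of 13 cases, against 67.3% of all listed genes, and their median was 75.4 TPM. Atp6v0c, of the proton channel, averaged 275 ± 9.73 TPM, Lamp1, the main lysosomal membrane glycoprotein, 205 ± 10.6 TPM, and Atp6ap1 123 ± 2.35 TPM (SD, n = 3). Of 6 regulators of lysosome genes 5 were detected, against 67.3% of all listed genes. Flcn averaged 46.4 ± 1.02 TPM, the calcium channel gene Mcoln1 27.1 ± 1.39 TPM, Tfe3 23.8 ± 1.60 TPM, Tfeb 23.7 ± 1.21 TPM and Mitf 1.17 ± 0.133 TPM. Tfec, which is known from macrophages, was below 1 TPM in all libraries.

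**Figure D4:**
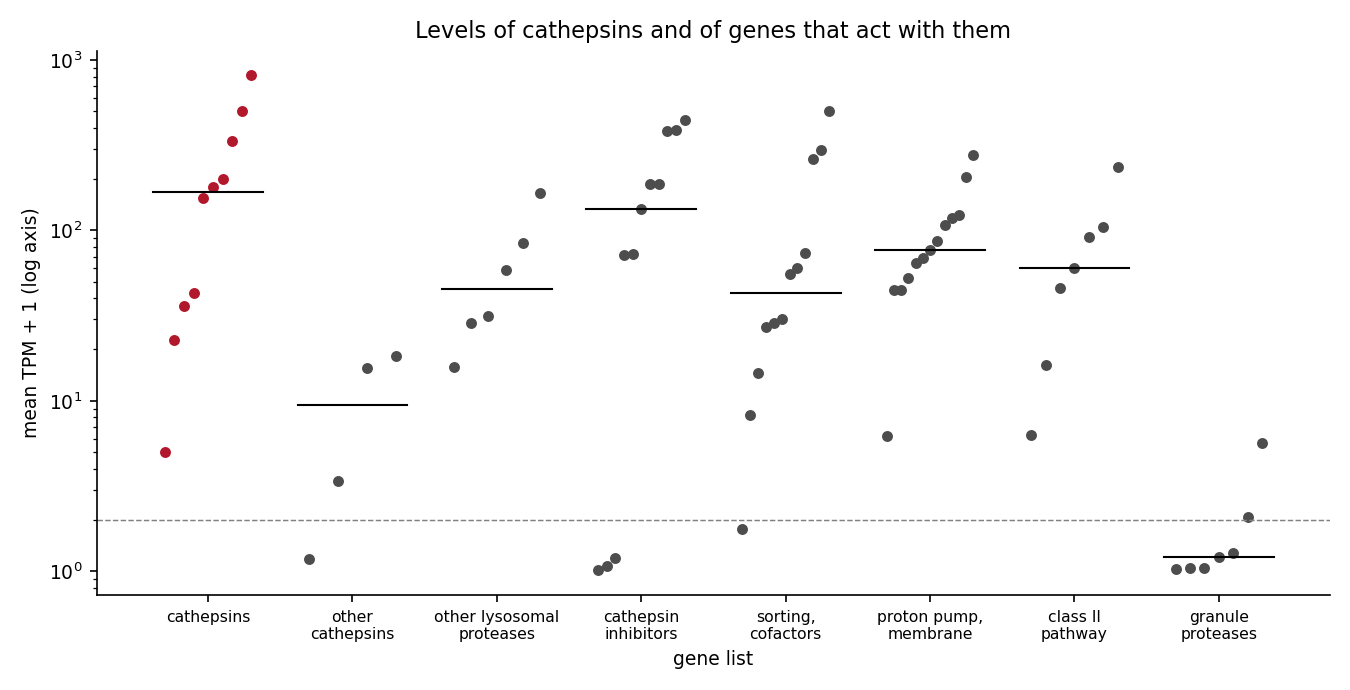
Mean TPM + 1 over 3 libraries (log axis) of each listed gene in the cathepsin family and 7 lists of genes grouped with it. Each point is a gene, the bar is the list's median and the dashed line marks 1 TPM. The cathepsins have a median of 166 TPM and the inhibitors 132 TPM, while the granule proteases lie at 0.213 TPM.

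Substrates and partners of single cathepsins were present to very different degrees. In the class II pathway served by Ctss and Ctsl, 7 of 7 genes were detected, against 67.3% of all listed genes. Cd74, the invariant chain that cathepsin S cuts, was at 245 TPM in replicate 3, against 225 and 233 TPM in replicates 1 and 2. Its TPM exceeded that of Ctss 1.19 ± 0.0852-fold, and Ctss exceeded Ctsl 9.30 ± 1.48-fold (SD, n = 3). H2-DMa, which loads peptides after the cut, averaged 44.6 ± 1.77 TPM, and its partner H2-DMb1 15.2 ± 1.32 TPM.

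The granule proteases that cathepsin C activates were mostly near 0. Of 7 listed, 1 was detected, against 67.3% of all listed genes. This was Gzma, at 5.70 TPM in replicate 3, against 3.86 and 4.29 TPM in replicates 1 and 2. Gzmm, named after its values were seen, was at 0.68 TPM in replicate 3, against 1.01 and 1.53 TPM in replicates 1 and 2. The other 5, among them Elane, Gzmb, Gzmc and Mcpt8, were below 1 TPM in all libraries. The median of the 7 was 0.213 TPM, and Ctsc exceeded Gzma 7.71 ± 1.39-fold in TPM. On the CPM scale Ctsc exceeded Gzma 53.5-fold, so the size of this step depends on the division by length. For Ctsa the partners of its complex were both detected, against 67.3% of all listed genes. Ctsa exceeded Glb1, the beta-galactosidase, 2.02 ± 0.0988-fold and Neu1, the sialidase, 8.59 ± 0.503-fold in TPM (SD, n = 3). On the CPM scale it exceeded Glb1 1.86-fold and Neu1 4.87-fold.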

How the data were processed

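RNA-seq of sorted lung ILC2s gave 3 libraries of 1 group. Bowtie2, RSEM 1.3.1 and GRCm38.p6 appear in the submitters' processing notes with no order, settings or annotation. Per the file headers, the authors deposited expected counts, TPM, FPKM and normalised read counts (a depth-scaled signal). TPM, which is per length, was used for all levels, with log2(TPM + 1) for differences between genes. The other units served as alternatives, with edgeR 4.0.16 scaling of rounded expected counts. The members and lists were chosen with earlier results of these data known, and gene pairs and the interferon response element after values or sequences were seen. With 1 group there was no test between conditions. Ratios of replicate 3 to the mean of replicates 1 and 2 carry 95% intervals that cover counting error only. Their relative width is that of the Clopper-Pearson interval on rounded expected counts, placed around the ratio in TPM. Where the ratios in TPM and in counts differ, as for Ctsc, the interval on counts alone would lie elsewhere. The program was tested on simulated data for well-counted genes only. Ctsk and most macrophage and neutrophil markers had fewer counts than the genes simulated. All 10 members matched RefSeq by Entrez ID, and 7 had a RefSeq promoter window. Transcript words of 50 bases came from GENCODE M21 (GRCm38). Planned protein comparisons were not made. The text names all 10 members, the detected genes of the short partner lists and up to 6 leading genes of the others, plus genes marked as chosen after their values were seen.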

Additional observations from a re-analysis of the deposited data

How the results depend on the processing

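The libraries are few and form 1 group, so these values describe them and no call rests on a test. No paired analysis was possible because there is 1 group. All 10 members were detected without any 1 replicate and at 0.5 TPM, 9 at 5 TPM and 8 at 20 TPM. The 60 alternative values of the replicate 3 ratio of single members all stayed within their counting intervals. These alternatives used other units of the same libraries or left out replicate 1 or 2. All kept the same replicate 3 library, so they do not show how the ratio would vary in another library. Without division by length (CPM) the median log2 level of the members was 6.83 in place of 7.38, the median rank percentile 87.2 in place of 94.4, Ctsw's share of the family 26.3% in place of 35.6%, and the log2 difference of Ctss over Ctsa was -0.57 in place of 0.15 and of Ctsh over Ctsc -1.60 in place of 0.26. The median rank percentile was 91.7 among detected genes and 94.9 without ribosomal protein genes. At 1.5-fold 1 member (Ctsk) passed in place of 2. The share of genes past the fold was 11.8% at 1.1-fold, 0.697% at 1.5-fold, 0.593% for genes averaging 10 TPM or more, and 9.85% over all genes above 0 in each library. Cst7 over Ctsc was 0.867-fold on the CPM scale in place of 5.35-fold. With a filter on the mean of all 3 libraries, a choice compared after seeing the data, 10 macrophage markers passed 1.2-fold in place of 9, the added one being Ear1, whose mean in replicates 1 and 2 was 0.885 TPM. Without Ctsk and Ctsl, an alternative chosen after seeing the data, the median ratio of the macrophage-type members was 1.03. Ctsk rests on 51 to 84 expected counts per library, which limits its ratio to between 1.21 and 2.20.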

Other observations

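Markers of other lung cells were low and did not all follow replicate 3. The counts of detected markers below stand beside 67.3% detected among all listed genes. Of 5 epithelial markers 4 were detected, and the surfactant gene Sftpc was at 7.33 TPM in replicate 3, against 10.7 and 10.2 TPM in replicates 1 and 2. The secretory cell gene Scgb1a1 was at 15.3 TPM in replicate 3, against 14.4 and 16.3 TPM in replicates 1 and 2. Of 5 neutrophil markers listed, 2 were detected, and Csf3r, the receptor for the granulocyte growth factor, was at 1.85 TPM in replicate 3, against 1.01 and 1.04 TPM in replicates 1 and 2. The other was Retnlg, a secreted protein of granulocytes, at 3.23 TPM in replicate 3, against 2.09 and 1.14 TPM in replicates 1 and 2. Xcr1, a receptor of cross-presenting dendritic cells, was at 13.2 TPM in replicate 3, against 11.2 and 10.7 TPM in replicates 1 and 2. The other detected dendritic marker, Zbtb46, was level, at 1.88 TPM in replicate 3, against 1.85 and 1.88 TPM in replicates 1 and 2. Clec9a and Flt3, also dendritic cell markers, were below 1 TPM in all libraries. Fibroblast markers, such as Col1a1 and Col3a1, were below 1 TPM in all libraries. No B cell marker of 3 and 1 NK marker of 5 (Gzma) were detected. The B cell marker Cd79a missed the level only in replicate 3, at 0.99 TPM, against 1.52 and 1.99 TPM in replicates 1 and 2.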
